A study of Homo sapiens with 16 samples.

Results

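The genes described here encode the SR proteins, the heterogeneous nuclear ribonucleoproteins (hnRNPs) and core factors of the spliceosome in MDA-MB-231, a line grown from a human triple-negative breast tumour. They were chosen by gene symbol from a list of 52 names, and all 52 occur among the 26485 genes of the count tables. By role they fall into 12 SR and SR-related proteins, 19 hnRNPs with the PTB proteins, 9 branch site and U2 factors, 3 U5 and PRP19 factors, 6 U1 and Sm proteins, and 3 scaffold proteins of nuclear speckles.

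Splicing removes introns from pre-mRNA on the spliceosome, which is built from small nuclear ribonucleoproteins (snRNPs) and many auxiliary proteins. SR proteins mostly bind exonic enhancers and recruit U1 and U2 components, while many hnRNPs bind silencers or intronic elements and act against exon inclusion. Many of these genes tune their own output through exons whose inclusion leads to decay of the mRNA, so that their RNA and their protein synthesis need not move together.

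CRISPR interference (CRISPRi), which uses a guide RNA to bring a repressor to a gene, was directed in these cells at tRNA-Ile-GAU or at eGFP, the control target. It was combined with a construct for tRNA-Ile-UAU or a control construct. The 4 conditions were the double modulation (tRNA-Ile-GAU guide with the tRNA-Ile-UAU construct), the knockdown (tRNA-Ile-GAU guide with the control construct), the overexpression (eGFP guide with the tRNA-Ile-UAU construct) and the control (eGFP guide with the control construct). Ribosome-protected fragments (footprints, the pieces of mRNA shielded by a ribosome) and total RNA were sequenced from each condition in 2 libraries, labelled as polyA RNA, after lysis with cycloheximide and pelleting of ribosomes through sucrose. All groups share the cell line, which the labels describe as a xenograft line, and the CRISPRi system, so the control is not an unmodified cell. The levels of the tRNAs themselves were not analysed here, so the conditions rest on the labels, and the labels do not say whether the libraries of a group came from separate cultures, so that p-values may measure technical spread only.

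Counts on genes ran from 358340 to 938909 per footprint library and from 2512247 to 5446599 per total RNA library. Footprint depth was 639320 to 938909 counts under the tRNA-Ile-GAU guide, against 358340 to 607919 under the eGFP guide. VIM, CD44 and EGFR, markers of this mesenchymal line, were present in every library, as were KRT8, KRT18, S100A4 and CAV1. Of the luminal markers, ESR1, FOXA1 and CDH1 were at a median of 0 CPM (counts scaled to 1000000 counts on genes) in both assays. KRT19, with medians of 551 CPM in footprints and 47.0 in total RNA, and ERBB2, with 38.9 and 37.0, were not, and EPCAM had 16.1 and 19.3. The fibroblast genes DCN, LUM and COL3A1, the T-cell gene CD3E and the endothelial gene CDH5 were also at a median of 0, while CD68, a lysosomal protein used as a macrophage marker, had 152 CPM in footprints and 10.8 in total RNA. The total RNA libraries of the double modulation stood apart from each other. Their counts differed by a chi-square of 15.12 per degree of freedom, against 1.34 to 2.37 between the replicates of the other total RNA groups and 1.13 to 1.68 in footprints. Replicate 1 of that group held the highest of the 8 total RNA values for 23.9% of all genes tested and for 8 of 51 members, and the lowest for 20.8% and for 23 members. For some results that rest on that group, values without 1 of its libraries are also given, and the others were not given so.

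Together the members took 1.90% and 2.06% of the footprint counts in the double modulation, 1.89% and 1.98% in the knockdown, 1.88% and 1.87% in the overexpression, and 1.87% and 1.89% in the control. In total RNA their share was 1.96% and 2.11% in the double modulation, 2.03% and 2.11% in the knockdown, 2.09% and 2.07% in the overexpression, and 2.05% and 2.05% in the control. In footprints both libraries of the double modulation lay above both of the control, by less on average than they differed from each other, and in total RNA they spanned the other conditions. Fewer cells and less RNA per cell cannot be told apart in such bulk lysates. Of the 52 members, 50 had footprints in every footprint library, and 51 had a count in every total RNA library. After the filter on low counts, 50 members were tested in footprints, 51 in total RNA and 50 in the ratio of the assays.

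HNRNPA3 and U2AF1 were the members without footprints. HNRNPA3, an hnRNP of the A/B family that binds mRNA, had 363 and 411 CPM in total RNA of the double modulation, 374 and 399 in the knockdown, 354 and 345 in the overexpression and 351 and 357 in the control. Its 0 footprints would allow up to 3.20 to 8.37 CPM, the value of 3 counts in the deepest and shallowest footprint library. RefSeq (GRCh38.p14) lists 17 pseudogenes named after HNRNPA3, and HTSeq set reads that align to several places apart. U2AF1, the small U2AF subunit that reads the AG at the 3′ splice site, had 11 counts in the 8 total RNA libraries together. RefSeq also lists U2AF1L5, a near-identical copy, at chr21:6484623-6499248. U2AF1 itself lies far from it on the same chromosome, at chr21:43092956-43107578. The level of U2AF1 is therefore uncertain and is not read as low expression.

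None of the members passed an adjusted p of 0.05 in any comparison of conditions. This held in footprints, in total RNA and in translational efficiency (the footprint change minus the RNA change), by edgeR's quasi-likelihood test adjusted over all genes, and DESeq2 also called 0. Among all genes tested in footprints, the share that passed was 1.93% in the double modulation, 1.11% in the knockdown and 0.0246% in the overexpression, each against control. It was 2.68% for the tRNA-Ile-GAU guide against the eGFP guide (averaged over the constructs), 0.43% for the tRNA-Ile-UAU construct against the control construct (averaged over the guides) and 0.0614% for their interaction, the construct effect in knockdown cells minus that in eGFP-guide cells. In total RNA these shares were 0.0683%, 0.0256%, 0%, 1.08%, 0% and 0% in the same order, and in translational efficiency all were 0%. Against shares this small, a count of 0 among 50 or 51 members does not set them apart.

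At an unadjusted p under 0.05 there were 9 members in footprints of the double modulation, 7 in the knockdown and 1 in the overexpression, and 9, 6 and 3 for the guide, the construct and the interaction. Among all genes the shares under that p were 11.9%, 9.75%, 5.02%, 13.4%, 7.57% and 5.83%, in the order double modulation, knockdown, overexpression, guide, construct and interaction. In total RNA the members under it numbered 3, 3, 0, 3, 1 and 1, against 7.62%, 6.94%, 1.99%, 10.51%, 1.96% and 2.66% of all genes in the same order. In translational efficiency they numbered 4, 0, 1, 3, 0 and 0, against 4.14%, 3.27%, 2.75%, 4.68%, 2.96% and 2.55% of all genes.

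How large a change the data leave room for can be read from the 95% intervals. In footprints of the double modulation against control, 43 of 50 intervals stayed within 1.5-fold in either direction and 49 within 2-fold, HNRNPA1 being the exception, with a median standard error of 0.13 on the log2 scale. For the guide comparison, which sets 4 libraries against 4, 49 of 50 stayed within 1.5-fold. In total RNA of the double modulation 44 of 51 stayed within 1.5-fold and all but SF3B4, SNRPB and SNRPD2 within 2-fold. Translational efficiency was less precise, with 27 of 50 members within 1.5-fold and 45 within 2-fold.

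**Figure D1:**
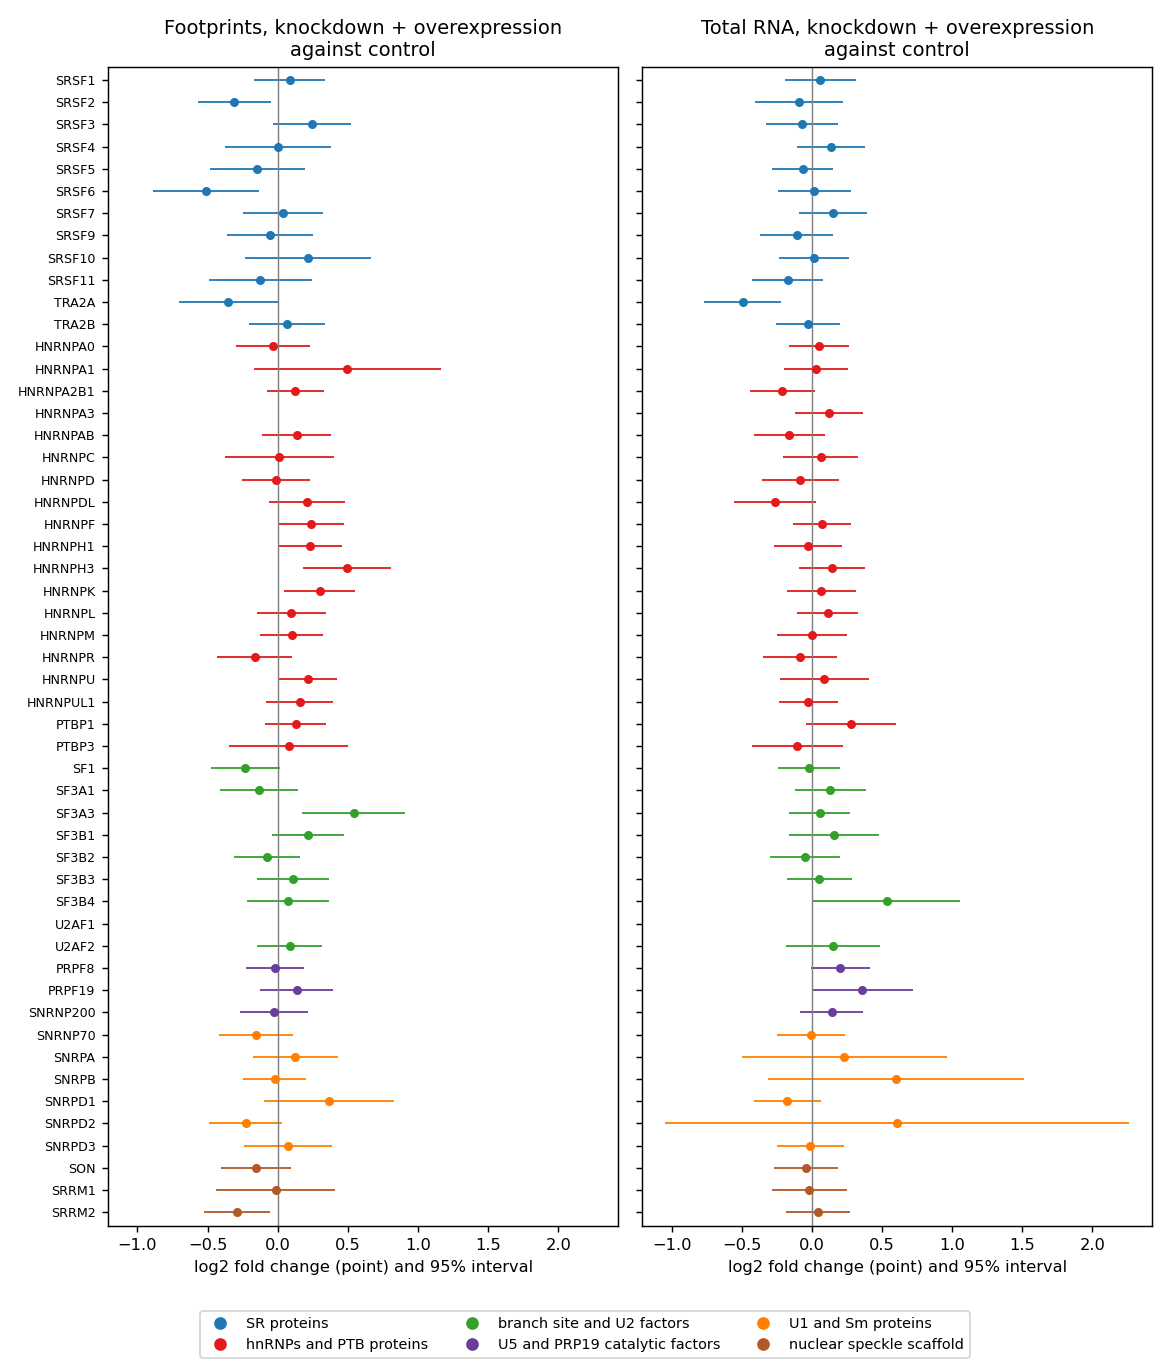
Log2 fold change of each member in the double modulation against control, in footprints (left) and total RNA (right), as points with 95% intervals from edgeR and coloured by role group. HNRNPA3 and U2AF1 have no footprint point and U2AF1 no RNA point. The intervals of SNRPD2, SNRPB and SNRPA in total RNA are the widest in that panel, and that of HNRNPA1 is the widest in footprints.

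The SR proteins centred near 0 in footprints of the double modulation, with a median log2 fold change of -0.03, 6 members above 0 and 6 below, against a median of 0.01 over all genes. SRSF3, the smallest SR protein and an adapter for mRNA export, had the highest value. It had 283 and 260 CPM in the double modulation, 269 and 273 in the knockdown, 220 and 199 in the overexpression and 230 and 224 in the control. All 4 libraries with the tRNA-Ile-GAU guide thus lay above all 4 with the eGFP guide. The fold change was 0.24 ± 0.14 (log2, standard error) for the double modulation against control and 0.31 ± 0.10 for the guide, with an adjusted p of 0.0891 for the guide. Total RNA of SRSF3 overlapped between the guides, with a log2 fold change of -0.01 ± 0.08.

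SRSF6, an SR protein that takes part in many alternative splicing choices, had the lowest footprint value of the group in the double modulation. Its footprints were 94.8 and 78.2 CPM in the double modulation, 105 and 93.0 in the knockdown, 100 and 108 in the overexpression and 132 and 116 in the control. The double modulation lay below the control in both libraries, at -0.51 ± 0.19 and an adjusted p of 0.177, while the knockdown and the overexpression lay between them or overlapped with the double modulation. Total RNA of SRSF6 showed no such order, with 330 and 342 CPM in the double modulation and 358 and 306 in the control. SRSF2, also named SC35, had 287 and 357 CPM of footprints in the double modulation and 359 and 421 in the control. The log2 difference was -0.31 ± 0.13 with an adjusted p of 0.286. SRSF2, and further on HNRNPH3, HNRNPK, HNRNPU, SF3B1 and PTBP3, were picked out after their values were seen.

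In the comparison of constructs, 11 of 12 SR proteins lay below 0 in footprints, at a median of -0.11, while 49.8% of all genes lay above 0. SRSF10, a regulator that represses splicing when dephosphorylated, was the exception at 0.24 ± 0.16. None of the 12 passed, and the lowest adjusted p among them was 0.605. In total RNA the same comparison gave 6 SR proteins above 0 and 6 below.

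TRA2A and TRA2B are the human Transformer-2 proteins, paralogs that bind purine-rich exonic enhancers. TRA2A lies at chr7:23504780-23531981 and TRA2B on chromosome 3. Total RNA of TRA2A was 65.0 and 71.6 CPM in the double modulation, 72.9 and 78.4 in the knockdown, 102 and 93.9 in the overexpression and 96.7 and 95.1 in the control. Its 4 libraries with the tRNA-Ile-GAU guide all lay below the 4 with the eGFP guide. The guide effect in total RNA was -0.44 ± 0.09 on the log2 scale with an adjusted p of 0.0537, the lowest of any member in that assay. It passed without the filter on low counts (adjusted p = 0.00525), where 486 genes passed against 126 in the main fit. It also passed with all libraries thinned to the depth of the shallowest (adjusted p = 0.0371). Further passes came without replicate 1 of the double modulation, at -0.38, and without replicate 2, at -0.49. Calls over all genes rose in both of these fits, each with 1 library for that group. The rest of the alternatives did not reach the threshold for TRA2A. It did not pass when any one of the other 6 libraries was left out (adjusted p up to 0.292), by DESeq2, with RLE size factors or with a replicate block (up to 0.0964).

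Footprints of TRA2A were 118 and 106 CPM in the double modulation, 133 and 128 in the knockdown, 187 and 137 in the overexpression and 135 and 150 in the control. Here too the 2 sets of 4 libraries did not overlap, with a guide effect of -0.31 ± 0.13 and an adjusted p of 0.211. The effect on translational efficiency was 0.12 ± 0.16. TRA2B had 298 and 286 CPM of footprints in the double modulation, 322 and 285 in the knockdown, 234 and 252 in the overexpression and 266 and 285 in the control, at 0.19 ± 0.10 for the guide. Its total RNA overlapped between guides, at -0.04 ± 0.07.

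The balance of the paralogs, log2 of TRA2A minus log2 of TRA2B, was therefore lower with the tRNA-Ile-GAU guide. In footprints it was -1.31 and -1.40 in the double modulation, -1.25 and -1.14 in the knockdown, -0.32 and -0.86 in the overexpression and -0.97 and -0.91 in the control. In total RNA it was -1.53 and -1.42 in the double modulation, -1.27 and -1.25 in the knockdown, -0.76 and -1.08 in the overexpression and -1.03 and -0.99 in the control. The 4 libraries with the tRNA-Ile-GAU guide lay below the 4 with the eGFP guide in both assays, and no test was made of this balance, which was chosen after the values were seen.

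HNRNPA2B1, the A/B hnRNP that binds UAG-containing RNA, is the other member on chromosome 7, at chr7:26189927-26200746. Its total RNA was 2136 and 2331 CPM in the double modulation, 2243 and 2360 in the knockdown, 2603 and 2625 in the overexpression and 2566 and 2593 in the control. Again all 4 libraries with the tRNA-Ile-GAU guide were lower, at -0.20 ± 0.07 with an adjusted p of 0.342. Without replicate 2 of the double modulation it passed, at -0.25, in a fit with 1 library for that group where calls over all genes also rose. It did not pass without replicate 1, at -0.15, nor when any one of the other 6 libraries was left out. Footprints of HNRNPA2B1 overlapped between the guides. They were 1535 and 1577 CPM in the double modulation, 1445 and 1445 in the knockdown, 1499 and 1459 in the overexpression and 1438 and 1380 in the control, at 0.04 ± 0.07 for the guide. The difference between the assays, 0.25 ± 0.09, had an unadjusted p of 0.0158 and an adjusted p of 0.865, so it did not pass.

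Genes of chromosome 7 were mostly lower with the guide. Of 553 chromosome 7 genes tested in total RNA, 516 were lower with the tRNA-Ile-GAU guide than with the eGFP guide and 80 passed, at a median log2 fold change of -0.37. In footprints 342 of 371 were lower, 84 passed, and the median was -0.39, while the median on the other chromosomes was 0.03 in total RNA and 0.02 in footprints. In translational efficiency the median for chromosome 7 was -0.01. The total RNA of TRA2A (-0.44) was near the chromosome 7 median and that of HNRNPA2B1 (-0.20) closer to 0. What part the location of these genes has in their values was not tested.

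**Figure D2:**
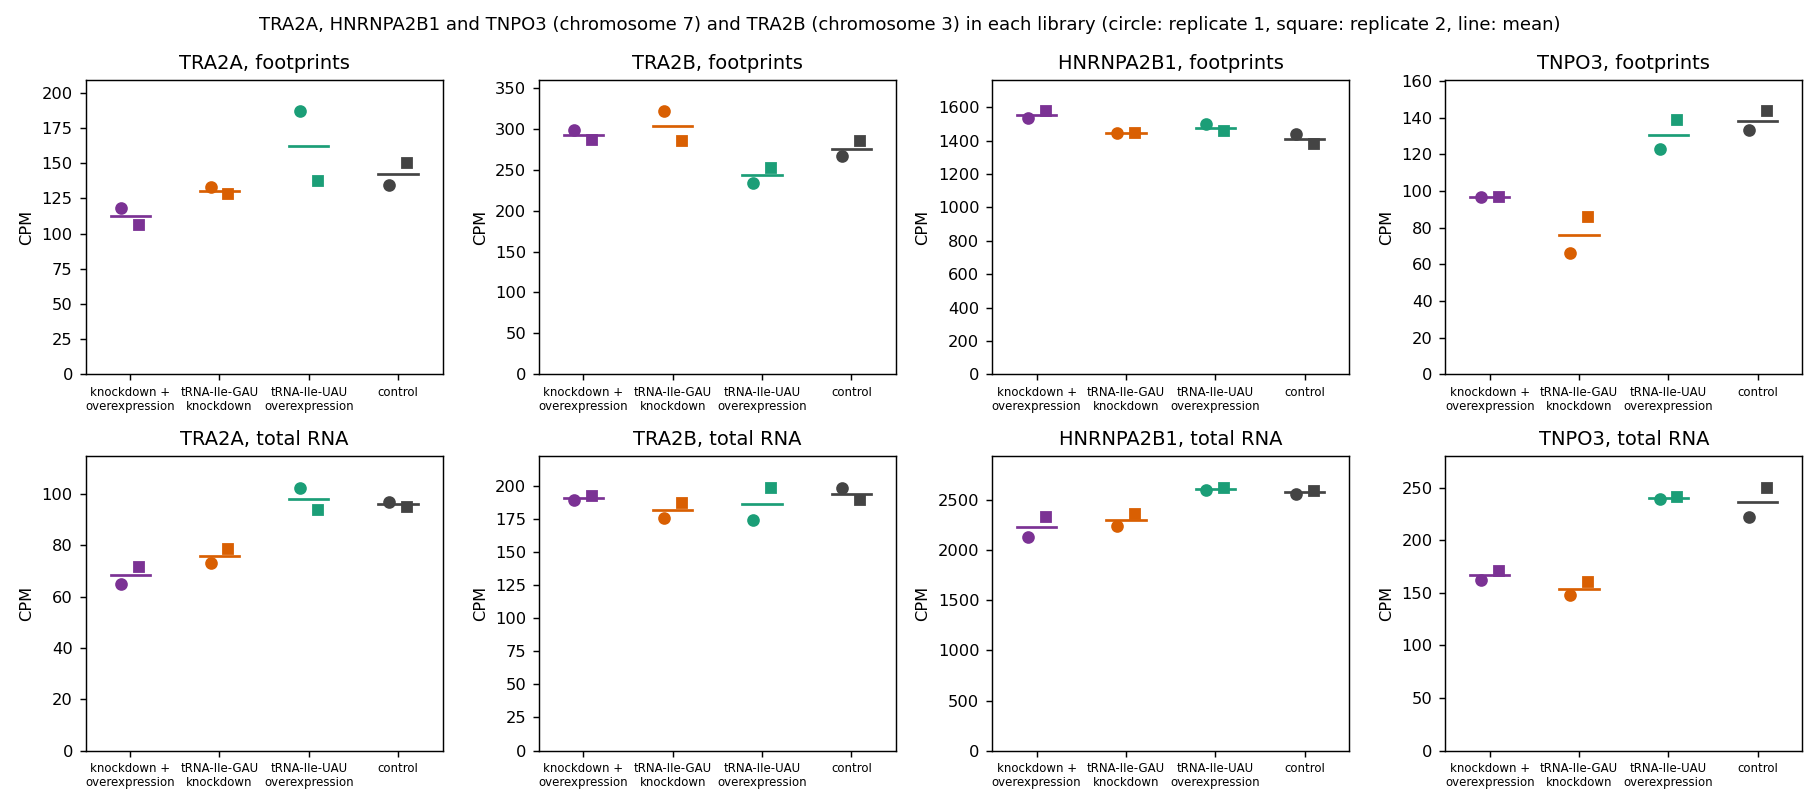
CPM of TRA2A, TRA2B, HNRNPA2B1 and TNPO3 in each library, footprints above and total RNA below, with conditions on the horizontal axis and a line at each mean of 2 libraries. Total RNA of TRA2A, HNRNPA2B1 and TNPO3 is lower in the 4 libraries with the tRNA-Ile-GAU guide than in the 4 with the eGFP guide, whereas TRA2B overlaps.

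Over all members, groups of 4 libraries that did not overlap between the guides were about as frequent as over all genes. In footprints this was 1 member higher (SRSF3, 2% of the members against 2.94% of all genes) and 2 lower (TRA2A and SF1, 4% against 4.3%). In total RNA 2 were higher (SRSF7 and HNRNPF, 3.92% against 3.4%) and 2 lower (TRA2A and HNRNPA2B1, 3.92% against 5.08%). SRSF7, an SR protein with a zinc knuckle, also had the highest RNA value of its group in the double modulation, at 0.15 ± 0.11, with 105 and 106 CPM there and 99.5 and 90.7 in the control.

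Among the hnRNPs and PTB proteins, 15 of 18 tested members lay above 0 in footprints of the double modulation against control, at a median of 0.13, where 50.9% of all genes lay above 0. In total RNA 11 of 19 did, at a median of 0.03, which was also the median of all genes. In footprints 15 of 18 members also lay above 0 for the guide and 12 of 18 for the construct, and none passed in either. Footprint replicate 2 of the double modulation held the highest of the 8 footprint values for 16 of the 50 members, against 14.2% of all genes, and replicate 1 for 4.

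HNRNPH3, a G-run binding protein of the H/F family, came closest to the threshold in that comparison. Its footprints were 197 and 239 CPM in the double modulation, 155 and 164 in the knockdown, 204 and 168 in the overexpression and 161 and 142 in the control. Both libraries of the double modulation lay above those of the knockdown and the control. The log2 fold change was 0.49 ± 0.16 with an adjusted p of 0.0854. Without replicate 1 of the double modulation it was 0.65 with an adjusted p of 0.0365, and without replicate 2 it was 0.35 and did not pass, nor did it without any other library (adjusted p up to 0.562). The scaffold protein HNRNPU had 1201 and 1570 CPM of footprints in the double modulation and 1114 and 1241 in the control, at 0.21 ± 0.11 with an adjusted p of 0.416. It passed only without replicate 1, at 0.41 with an adjusted p of 0.0253, and was at 0.0016 without replicate 2 (adjusted p = 0.997). Without replicate 1, 2 of 50 members (4%) and 1.55% of all genes passed. Total RNA of HNRNPH3 was 284 and 306 CPM in the double modulation and 262 and 271 in the control, a log2 difference of 0.15 ± 0.11.

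HNRNPA1, an abundant silencer-binding hnRNP, had the highest footprint fold change of the group and the least footprint data behind it. Its footprints were 42.6 and 28.2 CPM in the double modulation, 37.7 and 29.0 in the knockdown, 30.7 and 10.3 in the overexpression and 23.0 and 28.1 in the control. The guides overlapped, at 0.68 ± 0.26 with an adjusted p of 0.174. These values rest on 162 footprint counts in the 8 libraries together. In the double modulation the value was 0.49 ± 0.34, it ran from 0.14 to 0.71 with 1 library left out, and it turned to -0.20 when libraries were thinned to equal depth. HNRNPR, a paralog of the synaptotagmin-binding hnRNP Q, had the lowest footprint value, -0.16 ± 0.14, with 277 and 277 CPM in the double modulation and 317 and 295 in the control. HNRNPK, which binds C-rich RNA, had 407 and 440 CPM of footprints in the double modulation and 367 and 310 in the control, at 0.30 ± 0.13 and an adjusted p of 0.296.

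In total RNA of the double modulation PTBP1, the polypyrimidine tract-binding protein, had the highest value of the group at 0.28 ± 0.14. It had 142 and 108 CPM in the double modulation, 105 and 105 in the knockdown, 89.3 and 114 in the overexpression and 107 and 99.1 in the control, the highest of them in replicate 1 of the double modulation. HNRNPDL, an hnRNP D paralog, had the lowest at -0.26 ± 0.13, with 464 and 534 CPM in the double modulation and 618 and 579 in the control. Neither passed, with adjusted p values of 0.724 for PTBP1 and 0.712 for HNRNPDL. Without replicate 2 of the double modulation both did, PTBP1 at 0.42 (adjusted p = 0.0232) and HNRNPDL at -0.41 (adjusted p = 0.00862), and without replicate 1 neither did.

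The factors that recognise the branch site and the 3′ splice site gave the smallest adjusted p in footprints. SF1, the branch point binding protein of the early complex, had 391 and 396 CPM in the double modulation, 378 and 376 in the knockdown, 505 and 449 in the overexpression and 451 and 460 in the control. All 4 libraries with the tRNA-Ile-GAU guide lay below the 4 with the eGFP guide. The guide effect was -0.28 ± 0.09 with an adjusted p of 0.0605, and it passed at equal depth (adjusted p = 0.0263) and with a replicate block (0.0364). It did not pass with any library left out (adjusted p 0.0622 to 0.288) or in the other alternatives (up to 0.284). Total RNA of SF1 overlapped between the guides, at -0.08 ± 0.07, and the difference between the assays was -0.19 ± 0.11 with an adjusted p of 0.865. SF1 lies at chr11:64764606-64778542.

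SF3B1, the SF3b subunit that clamps the branch site duplex, had values in the other direction. Its footprints were 357 and 476 CPM in the double modulation, 439 and 454 in the knockdown, 380 and 363 in the overexpression and 354 and 347 in the control. The guide effect was 0.24 ± 0.09 with an adjusted p of 0.174. The low library was replicate 1 of the double modulation, and without it the value was 0.35 with an adjusted p of 0.0155. Without replicate 2 it was 0.13, and with any library other than replicate 1 left out it did not pass (adjusted p up to 0.598). Total RNA of SF3B1 was 344 and 450 CPM in the double modulation and 350 and 361 in the control, so the replicates of the double modulation differed by more than the control did from either. Its fold change in total RNA was 0.16 ± 0.14, and without replicate 1 it was 0.37 with an adjusted p of 0.0328.

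SF3A3, an SF3a subunit that joins U2 to the branch region, had the highest footprint value of the group. It had 149 and 136 CPM in the double modulation, 115 and 139 in the knockdown, 128 and 125 in the overexpression and 75.7 and 119 in the control. The log2 fold change in the double modulation was 0.54 ± 0.19 with an adjusted p of 0.121, and the 2 control libraries differed from each other by more than any other pair. Without replicate 1 of the control it was 0.25 (adjusted p = 0.770), and without replicate 2 of the control it was 0.91 (adjusted p = 0.0691). SF3B4, the SF3b subunit that contacts RNA upstream of the branch site, had the highest RNA value at 0.53 ± 0.23. This value ran from 0.32 to 0.70 with 1 library left out. Total RNA of SF3B4 was 27.7 and 20.2 CPM in the double modulation, 16 and 22.5 in the knockdown, 20.5 and 24.1 in the overexpression and 17.1 and 16 in the control. SF3B2 was lowest in total RNA at -0.05 ± 0.11, with 467 and 496 CPM in the double modulation and 489 and 507 in the control.

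The U5 and PRP19 factors had footprint values near 0. SNRNP200 (Brr2), the helicase that unwinds U4 from U6, had 419 and 499 CPM in the double modulation and 442 and 474 in the control, at -0.02 ± 0.12. PRPF19, the ubiquitin ligase of the PRP19 complex, had 341 and 349 CPM in the double modulation and 306 and 314 in the control, at 0.13 ± 0.13. In total RNA PRPF19 was again the higher at 0.36 ± 0.16 with an adjusted p of 0.653, at 114 and 88.3 CPM in the double modulation and 72.8 and 84.1 in the control. Its RNA value ran from 0.19 to 0.49 with 1 library left out. SNRNP200 was the lowest of the group in total RNA at 0.14 ± 0.10.

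The 3 speckle proteins all lay below 0 in footprints of the double modulation, at a median of -0.16, where 50.9% of all genes lay above 0. SRRM2, which with SON forms the core of nuclear speckles, was lowest at -0.29 ± 0.12 with an adjusted p of 0.259, at 476 and 497 CPM in the double modulation, 579 and 596 in the knockdown, 547 and 509 in the overexpression and 515 and 660 in the control. Without replicate 1 of the control SRRM2 was at -0.46 (adjusted p = 0.120), and without replicate 2 of the control at -0.097 (adjusted p = 0.918). SRRM1, a splicing coactivator, was highest at -0.01 ± 0.21, and its sign changed by DESeq2 (0.0058) and with a replicate block (0.0015). In total RNA their values ran from -0.04 ± 0.10 for SON to 0.05 ± 0.10 for SRRM2.

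The U1 and Sm proteins held the largest disagreement between replicates. SNRPD2, a subunit of the Sm ring that encircles spliceosomal snRNAs, had 53.6 and 5.30 CPM of total RNA in the double modulation, 14.9 and 13.6 in the knockdown, 7.73 and 15.3 in the overexpression and 24.7 and 14.3 in the control. The replicates of the double modulation were thus the highest and the lowest of the 8 libraries. The fold change against control was 0.61 ± 0.74, it was -1.82 with an adjusted p of 0.00983 without replicate 1, and it was 1.44 with an adjusted p of 0.000272 without replicate 2. Footprints of SNRPD2 showed no such gap, at 321 and 288 CPM in the double modulation and 337 and 370 in the control, the lowest value of the group at -0.23 ± 0.13.

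SNRPB, which encodes the Sm proteins B and B′, had 61.7 and 21.2 CPM of total RNA in the double modulation, 32.4 and 22.5 in the knockdown, 19.3 and 28.4 in the overexpression and 26.7 and 27.9 in the control. Its fold change of 0.60 ± 0.41 turned to -0.34 without replicate 1. SNRPA, the U1 A protein, had 26.3 and 13.1 CPM in the double modulation against 19.1 and 14.6 in the control. By contrast SNRPD1, another Sm ring protein, had 141 and 145 CPM in the double modulation and 172 and 150 in the control, the lowest RNA value of the group at -0.17 ± 0.11. SNRPD1 was the highest of the group in footprints at 0.37 ± 0.23, with 84.1 and 61.0 CPM in the double modulation and 74.0 and 39.6 in the control, values that overlapped.

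**Figure D3:**
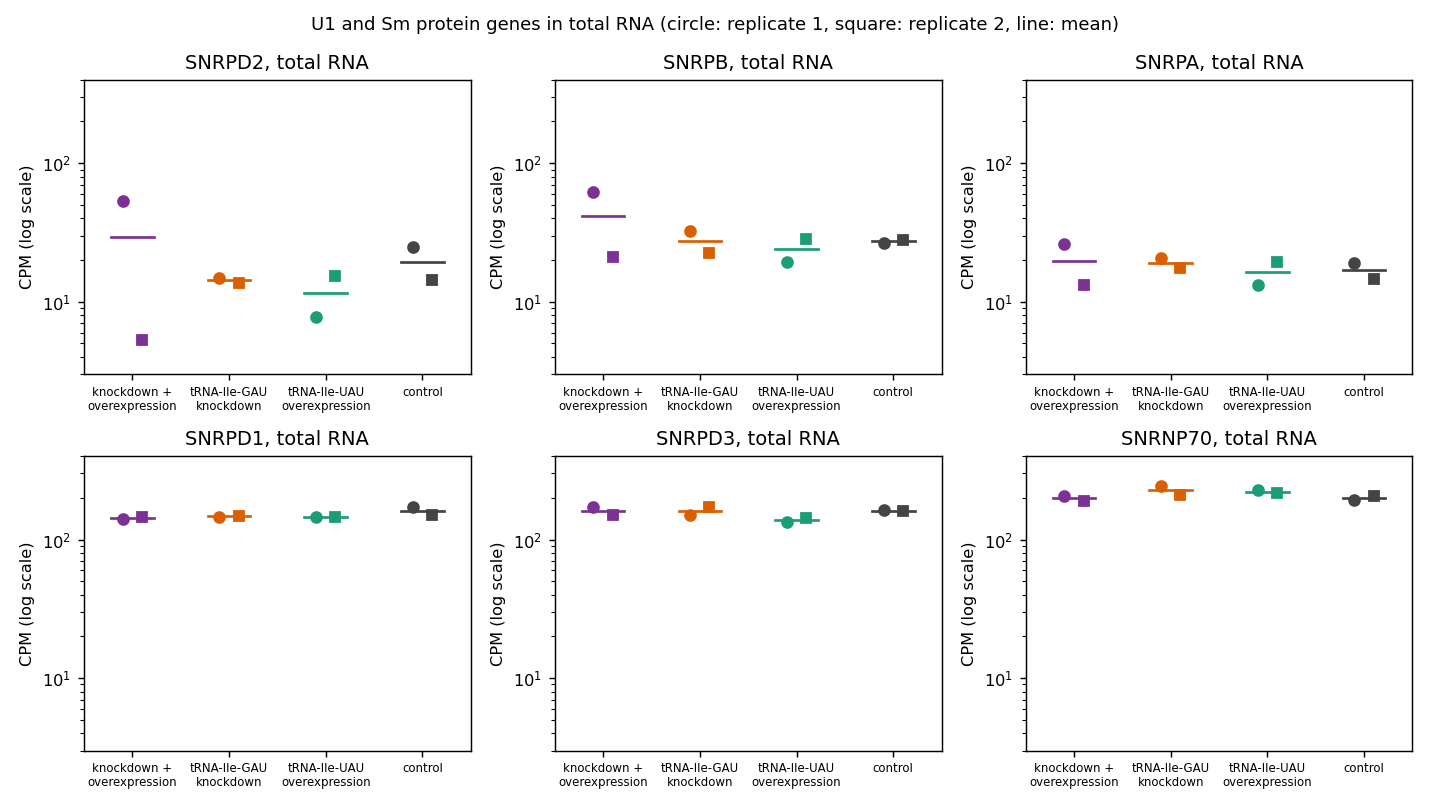
CPM of total RNA on a log axis for 6 U1 and Sm protein genes, by condition, with circles for replicate 1, squares for replicate 2 and lines for means. In the double modulation SNRPD2, SNRPB and SNRPA are higher in replicate 1 than in replicate 2, most for SNRPD2 (53.6 and 5.30 CPM), while SNRPD1, SNRPD3 and SNRNP70 differ little.

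Without replicate 2 of total RNA in the double modulation, 11 of 51 members (21.6%) and 15.8% of all genes passed against control. Without replicate 1 it was 2 members (3.92%), SF3B1 and SNRPD2, and 2.51% of all genes. Besides SNRPD2, SNRPB, PTBP1 and HNRNPDL, the 11 were TRA2A (-0.61), HNRNPA2B1 (-0.32), HNRNPR (-0.27), HNRNPD (-0.26), U2AF2 (0.34), PRPF19 (0.49) and SF3B4 (0.70). Each of these fits has 1 library for the double modulation, which is assumed to vary like the other groups. Of the 11, only SNRPD2 passed both ways, with opposite signs.

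No member passed for the interaction. In total RNA 39 of 51 members lay below 0, at a median of -0.08, where 52.9% of all genes lay above 0. The fold changes ran from -0.36 for SNRNP70, the U1 70K protein, to 1.74 ± 1.10 for SNRPD2. The interaction rests on the double modulation directly. Replicate 1 of that group held the lowest of the 8 total RNA values for 23 of the 51 members, against 20.8% of all genes. Without that replicate the value for SNRPD2 was -0.73, and the count of 39 members below 0 was not made without it.

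The ratio of footprints to total RNA separated the members far more than the conditions did. It was taken as the log2 of normalised footprint CPM minus that of total RNA CPM in each condition, and then averaged. Both assays were scaled together, which sets the typical gene near 0. A value above or below 0 therefore places a gene relative to the typical gene only. Footprints come from the coding part of an mRNA and total RNA from all of it, so the ratio also holds the coding share of each transcript, which was not analysed here. The members' median was -0.04, as was that of all 8012 genes tested, and in edgeR's test 22 members lay above 0 and 24 below it with an adjusted p under 0.05. Over all genes 86.8% passed this test (42.5% higher and 44.3% lower), so 46 of 50 members is near the background.

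At the top were components of the Sm ring, U1 and SF3b. SNRPB had log2 ratios of 3.96 in the double modulation, 4.23 in the knockdown, 4.51 in the overexpression and 4.37 in the control, which put its mean at the 99.6th percentile of all genes. SNRPD2 had 3.91, 4.21, 4.60 and 4.03 in the same order, SNRPA averaged 3.35 and SF3B4 3.14. In edgeR's fit SNRPB stood at 4.25 ± 0.16 and SNRPD2 at 4.03 ± 0.27. Leaving out any library in turn kept SNRPB between 4.12 and 4.48 and SNRPD2 between 3.84 and 4.65, so both stayed high with the replicate of high SNRPD2 RNA left out. The Sm ring was not uniform, since SNRPD1 lay at -1.41 and SNRPD3 near 0, at 0.04 ± 0.06 in the fit with an adjusted p of 0.598. Outside the members, the Sm gene SNRPE had 0 to 2.79 CPM of footprints and 22.6 to 36.5 of total RNA. SNRPG had 0 to 1.56 and 6.31 to 11.9, and SNRPF 43.8 to 59.6 and 91.5 to 101. The highest ratios rest on low total RNA, 5.30 to 53.6 CPM for SNRPD2 and 19.3 to 61.7 for SNRPB. DDX39B, an mRNA export gene outside the members, had 465 to 645 CPM of footprints and 0 to 0.729 of total RNA.

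Paralogs also lay far apart. PTBP1 had ratios of 2.95 in the double modulation, 3.05 in the knockdown, 3.13 in the overexpression and 3.08 in the control, against -1.91, -1.76, -1.97 and -2.12 for PTBP3, its paralog. These are 3.06 ± 0.08 and -1.95 ± 0.10 in edgeR's fit, intervals that do not overlap. Among the SR proteins, SRSF2 was highest with a mean of 1.47 and SRSF7 next at 1.11, while SRSF6 lay at -1.83 and SRSF10 lowest at -1.99. TRA2A (0.55 ± 0.08) and TRA2B (0.42 ± 0.06) lay close together.

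All 3 U5 and PRP19 factors lay above 0, from 0.43 for SNRNP200 to 1.63 for PRPF19, with PRPF8, the protein at the catalytic centre, at 1.25. Of the 8 branch site and U2 factors 4 lay above 0 and 4 below. U2AF2, the large U2AF subunit that binds the polypyrimidine tract, reached 1.90, and SF3A3 was lowest at -1.24. Of the speckle proteins SRRM2 was highest at 0.41 and SRRM1 lowest at -0.81. The role group medians were -0.65 for SR proteins, -0.79 for hnRNPs and PTB proteins, 0.34 for branch site and U2 factors, 1.25 for U5 and PRP19 factors, 2.0 for U1 and Sm proteins and -0.23 for speckle proteins.

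HNRNPA1 lay at the bottom by a wide margin. Its ratio was -5.75 in the double modulation, -5.92 in the knockdown, -6.63 in the overexpression and -6.16 in the control, at the 0.025th percentile of all genes, and -6.14 ± 0.11 in edgeR's fit. The next lowest was HNRNPC, a protein that packages nascent pre-mRNA at uridine tracts, with -2.50 in the double modulation, -2.67 in the knockdown, -2.80 in the overexpression and -2.55 in the control. Footprints of HNRNPA1 ran from 10.3 to 42.6 CPM and its total RNA from 1648 to 1916 CPM over 8 libraries each.

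**Figure D4:**
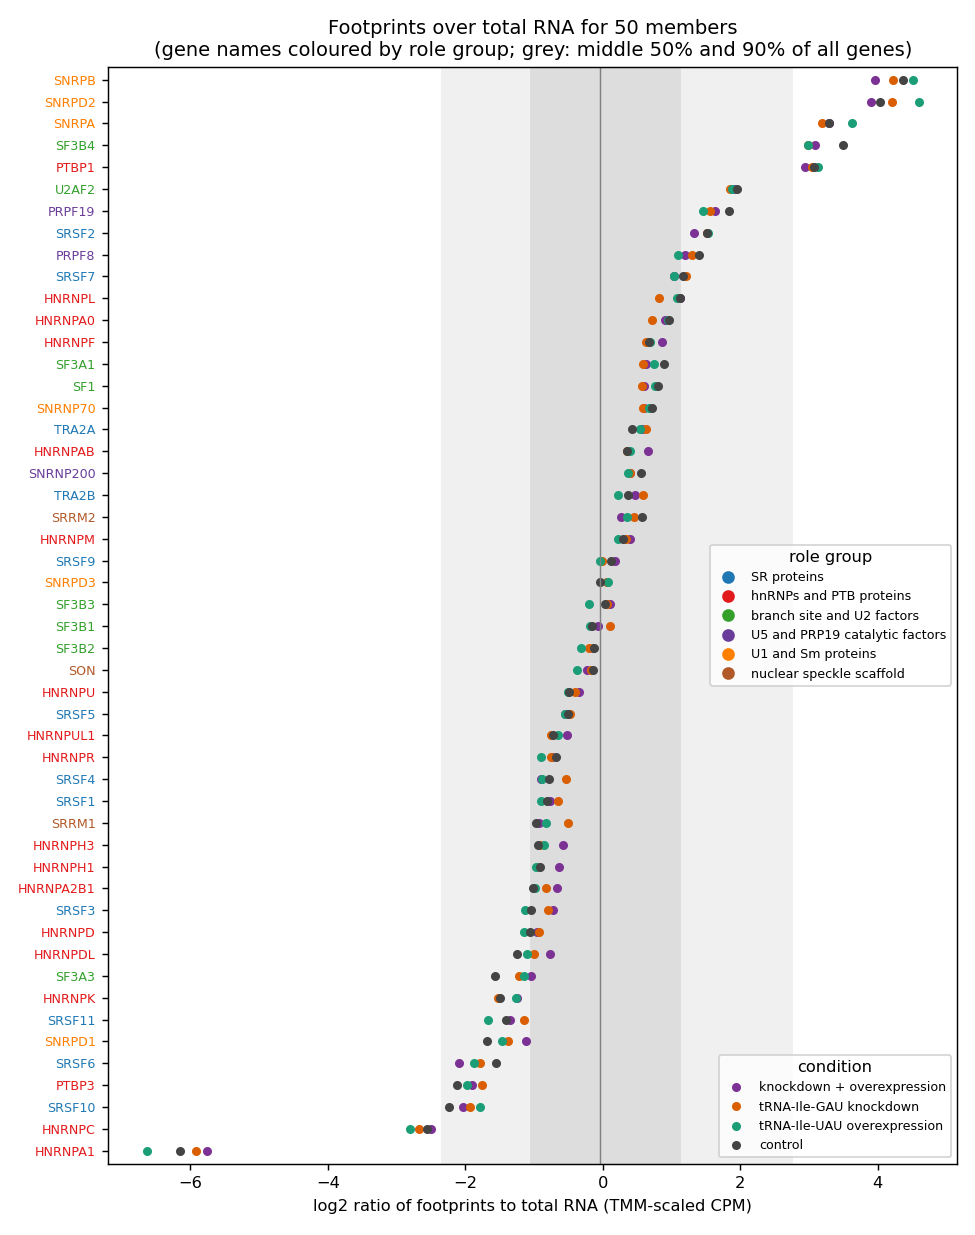
Log2 ratio of footprints to total RNA for each of 50 members, sorted by mean, with 1 point per condition and gene names coloured by role group. The dark and light grey bands hold the middle 50% and 90% of all genes and the line marks their median. SNRPB and SNRPD2 lie near 4 and HNRNPA1 near -6 in all 4 conditions.

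Members with more annotated pseudogenes tended to have a lower ratio. RefSeq lists 75 pseudogenes named after HNRNPA1, 9 after HNRNPC and 5 each after SRSF3, HNRNPDL and HNRNPK. The 5 members with 4 or more pseudogenes and a tested ratio had a median of -1.38, and none was above 0. The median was -0.33 for the 22 members with 1 to 3 pseudogenes, of which 10 were above 0, and 0.42 for the 23 members with none, of which 14 were. Spearman's rho across the 50 members was -0.42, a description over genes measured in the same libraries. Only names made of the gene symbol, the letter P and a number were counted, so pseudogenes under other names were missed. Pseudogenes of the other genes were not counted. The genomic span of a gene gave a rho of -0.24 over the 50 members and -0.49 over 7990 genes. The GC percent of the promoter gave 0.06 over 45 members and -0.04 over 6706 genes. Alignments to several places, which were not counted on genes, made up 97.0 to 98.8% of all that HTSeq tallied in the footprint libraries and 97.2 to 98.1% in total RNA. Members with a pseudogene count of 0 still spanned -1.94 (PTBP3) to 3.35 (SNRPA), and the highest ratios were those of SNRPB and SNRPD2, with 1 and 2 pseudogenes. The part of uncounted reads in the ratios, high or low, was not tested. The footprint levels of HNRNPA1, HNRNPA3 and HNRNPC are uncertain, as is the total RNA behind the highest ratios.

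**Figure D5:**
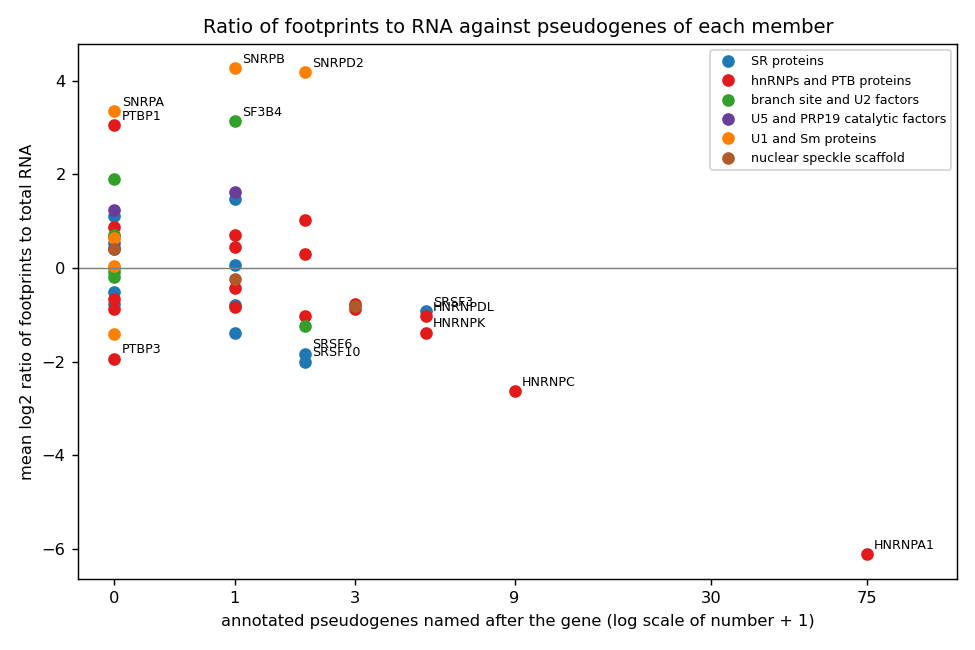
Mean log2 ratio of footprints to total RNA against the number of RefSeq pseudogenes named after each of 50 members, on a log axis of the number plus 1, coloured by role group. The 5 members with at least 4 pseudogenes all lie below 0, and members with none lie on both sides.

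The spread from the lowest to the highest condition was 0.09 for U2AF2, 0.18 for PTBP1 and 0.20 for SRSF2, and 0.88 for HNRNPA1. The largest change in translational efficiency of the double modulation by size was that of SNRPD2, at -0.87 ± 0.73 with an adjusted p of 0.956. Without replicate 2 of total RNA in that condition, SNRPD2 (-1.63), SNRPB (-1.11), HNRNPDL (0.66) and HNRNPA2B1 (0.48) passed. These are 8% of the 50 members, against 7.64% of all genes in that fit. Without replicate 1 no member passed, against 0.188% of all genes.

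Beyond the members, 120 other genes of the splicing and mRNA export machinery were read from the same fits. These were SR protein kinases, SR-like and hnRNP-like proteins, further U1, U2 and Sm proteins, U4/U6.U5 and catalytic factors, exon junction and decay factors, and export and cap-binding factors. In footprints 112 were tested, of which 1 rose in the double modulation, 1 fell in the knockdown and 1 fell with the guide. Among all genes 1.93%, 1.11% and 2.68% passed in these comparisons. In total RNA 115 were tested, of which 1 fell with the guide, against 1.08% of all genes. In translational efficiency 111 were tested and 0 passed by edgeR, against 0% of all genes. At an unadjusted p under 0.05 there were 1 in the double modulation and 3 for the guide, against 4.14% and 4.68% of all genes. Against these shares the counts do not set the listed genes apart.

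TNPO3 (transportin-SR), the import receptor that carries phosphorylated SR proteins into the nucleus, fell with the tRNA-Ile-GAU guide in both assays. Its footprints were 96.9 and 97.0 CPM in the double modulation, 66.0 and 85.8 in the knockdown, 123 and 139 in the overexpression and 133 and 144 in the control. Its total RNA was 162 and 171 CPM in the double modulation, 148 and 160 in the knockdown, 239 and 241 in the overexpression and 222 and 250 in the control. The guide groups did not overlap in either assay. The guide effect was -0.67 ± 0.14 in footprints (adjusted p = 0.000348) and -0.58 ± 0.08 in total RNA (adjusted p = 0.0139), and the difference between the assays was -0.08 ± 0.14.

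In the knockdown alone, footprints of TNPO3 fell by 0.88 ± 0.19 on the log2 scale (adjusted p = 0.00233), a call lost without replicate 2 of the control (0.154) or replicate 1 of the knockdown (0.202). The call in total RNA was lost without any one of the 6 libraries outside the double modulation, at adjusted p values up to 0.140. TNPO3 lies at chr7:128954185-129056193, on the chromosome with guide medians of -0.39 (footprints) and -0.37 (total RNA), and the part of that location was not tested. The other listed genes of chromosome 7, namely SRPK2 (an SR protein kinase), BUD31 (a catalytic stage factor) and LUC7L2 (a U1-associated protein), had guide effects in total RNA of -0.34 ± 0.11, -0.33 ± 0.11 and -0.51 ± 0.17, none of which passed.

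PLRG1, a core subunit of the PRP19 complex at chr4:154535005-154550400, rose in footprints of the double modulation. It had 274 and 278 CPM there, 231 and 256 in the knockdown, 223 and 240 in the overexpression and 192 and 190 in the control, so that the double modulation lay above and the control below all other libraries. The log2 fold change was 0.51 ± 0.15 with an adjusted p of 0.0350. The call was lost by DESeq2 (0.137), without the filter on low counts (0.0591), at equal depth (0.0821), without chromosome 7 genes (0.0601) and without any one of 6 footprint libraries, up to 0.321. Total RNA of PLRG1 was 152 and 183 CPM in the double modulation, 159 and 180 in the knockdown, 141 and 148 in the overexpression and 151 and 149 in the control.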

How the data were processed

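The deposited files hold raw read counts per gene symbol, 1 file per library, made by the authors with cutadapt 1.17, STAR 2.5.2a and HTSeq on hg38, per the submitters' processing notes; their order, settings and annotation are not given in the sources used here. Genes missing from a footprint file were given a count of 0, and the 5 HTSeq summary lines were left out of totals and tests. CPM are counts scaled to 1000000 counts on genes. The filter on low counts was filterByExpr (at least 10, in total 15), and scaling was by TMM. Genes were tested in edgeR 4.0.16 (R 4.3.3) by the quasi-likelihood test on all 8 libraries of an assay, or on all 16 for translational efficiency and the ratio, with Benjamini-Hochberg adjustment over 8143 genes in footprints, 11720 in total RNA and 8012 in the joint fit. Residual degrees of freedom were 4, 4 and 8. Log2 CPM used a prior count of 2. Scripts were tested on simulated data. DESeq2 1.42.0 was an alternative. Positions and pseudogenes came from RefSeq tables of GRCh38.p14, in which 23758 symbols matched as current names and 1562 as older ones, and 1165 had no position. Samples were grouped by their titles.

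Named with values were members that passed, the highest and lowest of each role group in footprints and total RNA of the double modulation and in the ratio, members on chromosome 7, members with mostly 0 counts, and other splicing genes that passed; other genes with values were chosen after their values were seen. The members, lists and tests were chosen with earlier results of these data known. Alternatives were RLE size factors, DESeq2, no filter, thinned libraries, no chromosome 7 genes, only the compared groups, a replicate block and each library left out.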

Additional observations from a re-analysis of the deposited data

How the results depend on the processing

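The count of 0 members past the threshold held in most alternatives. For the guide in footprints, 1 member (SF1) passed with a replicate block and 1 (SF1) with thinned libraries. For the guide in total RNA, 1 (TRA2A) passed without the filter and 1 with thinned libraries, and for the interaction in total RNA, 1 (SNRPD2) passed without the filter. Calls over all genes also moved in the alternatives that kept every library. They ran from 69 to 264 for the footprint guide, with 133 in thinned libraries. For total RNA they ran from 14 to 486 for the guide and from 0 to 40 for the interaction, both highest without the filter. The titles do not say whether libraries of the same number belong together, and the main fits did not pair them. Same-numbered deviations correlated over genes at -0.04 to 0.06 (footprints) and -0.42 to 0.36 (total RNA), which cannot settle this. The replicate block gave 53 genes called for the guide in total RNA, against 126 without it. With 1 library left out in turn, members called ran from 0 to 2 in the footprint double modulation, 0 to 1 for the footprint guide, 0 to 11 in the RNA double modulation, 0 to 6 for the RNA guide, 0 to 1 for the RNA construct and 0 to 2 for the RNA interaction. In translational efficiency they ran from 0 to 4 in the double modulation, 0 to 3 for the guide and 0 to 1 for the interaction. Most of these calls came without replicate 2 of total RNA in the double modulation, a fit that assumes that the lone replicate 1 varies like the other groups. Values that changed sign in the double modulation were those of HNRNPA1 in footprints (-0.20 thinned), SNRNP200 in footprints (0.033 thinned, -0.16 to 0.12 with 1 library out), SRRM1 in footprints (0.0058 by DESeq2, 0.0015 with the block, -0.21 to 0.22) and SNRPD1 in footprints (-0.0093 to 0.88). In total RNA they were SNRPD2 (-1.82 to 1.44), SNRPB (-0.34 to 1.13), SF3B1 (-0.094 to 0.37), SF3B2 (-0.14 to 0.023), SRRM2 (-0.019 to 0.10) and SON (-0.16 to 0.064), and for the interaction SNRPD2 (-0.73 to 2.52) and SNRPB (-0.17 to 1.30). The causes were not tested. Members called for the ratio numbered 44 to 47 of 50 under all alternatives. Genes called by DESeq2, against edgeR, in footprints were 48 against 157 in the double modulation, 25 against 90 in the knockdown, 69 against 218 for the guide and 18 against 35 for the construct. In total RNA of the double modulation they were 54 against 8, in the knockdown 41 against 3, and edgeR's 8 ran from 0 to 1854 with 1 library out. For the guide in total RNA, edgeR's 126 ran from 6 to 1820 with 1 library out. PLRG1 in footprints of the double modulation kept its sign in all alternatives, and other scalings moved the median of all genes by less than 0.04. Footprint depth limits members such as HNRNPA1, with 162 counts.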
